A study of Mus musculus with 4 samples.

Results

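Cytosolic ribosomal protein genes encode the proteins of the 2 subunits of the ribosome that translates messages in the cytoplasm. They were taken here by symbol, as Rpl or Rps followed by a digit, Rpsa, and Rplp0 to Rplp2, without pseudogene symbols and without the S6 kinase genes (Rps6k), and had to be listed in all libraries. The rule found 86 of 27514 genes. Of these, 31 are core proteins of the small subunit, 46 are core proteins of the large subunit (3 of them form its stalk), 8 are paralogs of a core gene, and 1, Rps19bp1, encodes a protein that binds a ribosomal protein and is not one itself by its name. The 86 genes lie on 19 chromosomes and 4 of them are X-linked. A mean of at least 10 CPM (UMIs of a gene after scaling all libraries to the same total) in all passing cells was reached by 85, all but Rpl3l.

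Ribosomal proteins are made in matching amounts and assembled with ribosomal RNA in the nucleolus. Most of their messages begin with a C followed by a run of pyrimidines, the 5′ TOP motif, through which the growth-sensing kinase complex mTORC1 controls their translation. In the testis the X chromosome is silenced during meiosis, and several X-linked ribosomal protein genes have autosomal copies that are active in male germ cells.

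Undifferentiated spermatogonia (A_undiff, the population that holds the stem cells and progenitors of the male germline) were sorted from testes of wild-type C57BL/6J mice aged 6 to 8 weeks as E-cadherin+ CD49f+ c-KIT- cells. CTRL mice were untreated, and BU mice had received a single dose of 10 mg/kg busulfan, an alkylating drug that kills most spermatogonia, 10 days before harvest (D10). Each library held cells pooled from 3 mice, and 2 experiments with 1 CTRL and 1 BU library each gave CTRL 1, BU 1, CTRL 2 and BU 2. Transcripts were counted as unique molecular identifiers (UMIs) from their 3′ ends, and 3 classes of cells were drawn by marker transcripts: Gfra1+ cells (Gfra1, a GDNF receptor of stem cells), Sox3+ cells (Sox3, a transcription factor of progenitors) and Kit+ cells (Kit, the receptor that marks differentiating spermatogonia).

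Cells that showed more than 1000 genes, with less than 20% of UMIs from the mitochondrial genome, numbered 3101 in CTRL 1, 2008 in BU 1, 1120 in CTRL 2 and 1264 in BU 2, with a median of 8051 to 34023 UMIs per cell. CTRL and BU libraries held 585, 214 and 865, 528 Gfra1+ cells (experiments 1 and 2), 1470, 646 and 473, 264 Sox3+ cells, and 36, 37 and 322, 156 Kit+ cells, which carried Kit message although the sort removed cells with c-KIT protein. Germ cell genes such as Dazl (752 to 1626 CPM) and Ddx4 (231 to 322 CPM) were present in every library, while the message of the sort marker Cdh1 was scarce (4.91 to 5.42 CPM). Spermatid genes took 0.113% to 1.86% of UMIs and somatic genes 0.00367% to 0.0281%. CTRL 2 and BU 2 shared 70 cell barcodes, CTRL 1 and BU 1 shared 7, and BU 1 and CTRL 2 shared 1. The 37 Kit+ cells of CTRL 2 stood apart, since somatic genes took 0.539% of their UMIs and spermatid genes 0.863%, against at most 0.00544% and 0.0877% in Kit+ cells of the other libraries. The Leydig cell genes Cyp17a1, Insl3 and Star were at 3287, 1595 and 145 CPM there, against 0, 0 and 1.80 to 3.98 CPM in the others. Of the other somatic genes, Cd74 and Acta2 were at 0 there. The paper describes KIT+ Leydig cells, so the Kit+ values of CTRL 2 need not be those of germ cells alone. The shares, the counts of calls and the called genes of Kit+ cells are therefore also given without cells that carried spermatid or somatic RNA, 6 of the 37. Because the libraries were pools, p-values measured only the spread between these pools and experiments.

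The start of a few genes is shown with short pyrimidine runs of the kind found in the TOP motif. Whether the values below go with such runs was not tested. A script searched the 15 bases on each side of the annotated start site for TCTTT or CCTTT on both strands. On the strand of the gene, 22 of the 66 genes with a RefSeq entry on GRCm38.p6 held either run (33.3%), against 7.88% of 27025 genes. On the other strand the share was 1.52%, against 7.75% of all genes. TCTTT was found in 11 and CCTTT in 12, with 1 gene in both counts. The windows of Rps6 (the S6 kinase substrate), Rplp2 (a stalk protein) and Rps27 held a run, shown in capitals. Those of Rps27l, Rpl39 and Rps4x, shown because results below turn on these genes, held none, as was the case for most of the 66, while the window of Rpl13a held one.
Rps6, chr4:86857353-86857382, minus strand: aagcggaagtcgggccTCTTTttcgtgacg
Rplp2, chr7:141447636-141447665, plus strand: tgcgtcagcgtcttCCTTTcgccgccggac
Rps27, chr3:90213634-90213663, minus strand: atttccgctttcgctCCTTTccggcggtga
Rps27l, upstream start, chr9:66946071-66946100, plus strand: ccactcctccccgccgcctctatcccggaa
Rps27l, downstream start, chr9:66946398-66946427, plus strand: accatgggcttcagggtcactaacgggcct
Rpl39, chrX:37085208-37085237, minus strand: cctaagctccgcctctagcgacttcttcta
Rps4x, chrX:102189377-102189406, minus strand: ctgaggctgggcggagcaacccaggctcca
A match is a description of these letters only, and the start sites used by spermatogonia were not measured.

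The 86 genes together took 15.2% to 18.3% of the UMIs of a library. Among those with the largest share were Rps2, Rps15a, Rps16 and Rpl13, each a core protein, with 2.43% to 2.79% of all ribosomal protein UMIs each. The top 10 genes held 24.1%, and 25 genes made up 50% or more. These shares are not an order of molecules, because capture at the 3′ end and loss of reads shared with processed pseudogenes differ between genes.

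The experiments differed in the makeup of the set far more than CTRL and BU did. The share of a gene among ribosomal protein UMIs differed between experiments by a median of 0.47 on the log2 scale, against 0.14 (experiment 1) and 0.09 (experiment 2) between BU and CTRL. More than a 2-fold difference between experiments was seen for 11 genes. Rpl13a, a large subunit protein with many processed copies in the genome, took 2.20% in experiment 1 and 0.0937% in experiment 2, 23.5-fold less. Rps27rt, Rps6 and Rpl10 were 2.59-fold, 2.17-fold and 2.15-fold lower in experiment 2. Rps24, Rps21, Rps26, Rpl15 and Rpl38 were 3.56-fold, 2.79-fold, 2.34-fold, 2.31-fold and 2.27-fold higher in experiment 2. The experiments differed in kit version by the labels, although the paper names version 2 alone, and in the gene list of the files. Kit, gene list and mice cannot be told apart as causes. Only Rpl39 differed in share by more than 2-fold between CTRL and BU in both experiments, from 0.0588% to 0.161% and from 0.108% to 0.276%.

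**Figure D1:**
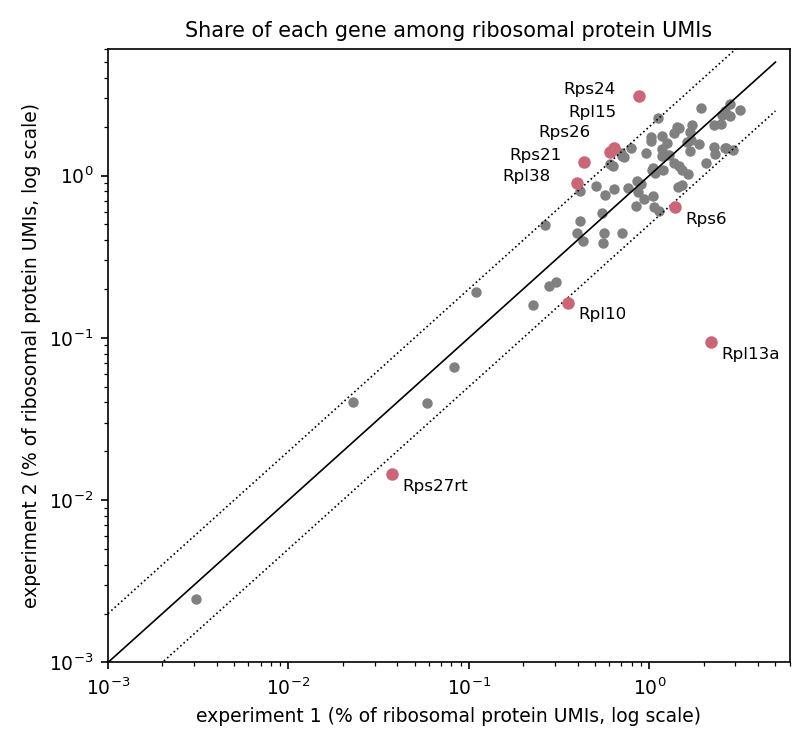
Share of each of the 86 genes among ribosomal protein UMIs of all passing cells, experiment 1 on the x axis and experiment 2 on the y axis, both in % on log scales, each point the mean of a CTRL and a BU library. The solid line marks equal shares and the dotted lines a 2-fold difference; Rpl13a lies far below them at 2.20% and 0.0937%, and Rps24 is the farthest above.

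The first question was whether the total share of ribosomal protein messages differed after BU. In Sox3+ cells the share was 19.3% (CTRL) against 15.4% (BU) in experiment 1 and 20.6% against 17.4% in experiment 2. Both BU libraries were thus below both CTRL libraries, with means of 16.4% ± 1.41 and 19.9% ± 0.93 (SD, n = 2) and a difference of -3.51 percentage points. The difference was -3.85 in experiment 1 and -3.17 in experiment 2, and p was 0.33 by a two-sided exact permutation test, as low as 4 libraries can reach. Single cells showed the same shift, with a median share of 19.5% (quartiles 17.2% and 21.4%) in CTRL 1 against 14.6% (12.8% and 17.6%) in BU 1. In experiment 2 the median was 20.9% (18.5% and 23.0%) in CTRL against 17.4% (14.6% and 20.7%) in BU. Sox3+ cells were also redrawn as cells of at least 5000 UMIs that kept a Sox3 UMI after thinning to 5000. The shares over all UMIs of those cells were 19.4%, 15.5%, 20.5% and 17.6% in CTRL 1, BU 1, CTRL 2 and BU 2. A share of UMIs does not tell fewer ribosomal protein messages from more of all others.

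Markers of stem cells, progenitors and differentiating cells also differed between BU and CTRL in Sox3+ cells. In Sox3+ cells Kit was at 2.05 and 6.61 CPM in CTRL and 48.6 and 65.7 CPM in BU, and Stra8, a target of retinoic acid, was at 70.2 and 41.9 CPM against 286 and 173 CPM. The progenitor gene Neurog3 was at 63.9 and 37.5 CPM in CTRL and 19.4 and 12.1 CPM in BU. Stem cell genes such as Nefm (8.19 and 20.9 CPM in CTRL, 42.5 and 103 CPM in BU) were higher too. Gfra1 was at 14.55 and 19.7 CPM in CTRL against 37.6 and 42.5 CPM in BU. Another stem cell gene, Ret, was lower (30.05 and 31.49 CPM against 15.47 and 19.45 CPM), and Foxc2 and Id4 did not share a direction between experiments. The list of 7 mitosis genes took 0.0607% and 0.0606% of UMIs in CTRL and 0.124% and 0.132% in BU. Sox3+ cells that were also Kit+ numbered 24 of 1470 and 20 of 646 in CTRL and 134 of 473 and 86 of 264 in BU. In cells above the threshold for Sox3 alone, the shares were 19.5%, 16.3%, 21.1% and 19.1% (CTRL 1, BU 1, CTRL 2, BU 2), still lower with BU in both experiments.

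In Gfra1+ cells the share moved in opposite directions in the experiments. It was 17.1% (CTRL) against 15.3% (BU) in experiment 1, but 17.4% against 18.4% in experiment 2, a mean difference of -0.42 points (exact permutation p = 1.0). Without BU 1 the difference was 1.12 points. Kit+ cells had 17.4% and 13.6% in experiment 1 and 12.9% and 15.1% in experiment 2 (difference -0.80, p = 1.0 by the exact permutation test). With the cells that carried spermatid or somatic RNA left out, Kit+ cells of CTRL 2 had 14.4%, and BU 2 15.1%. In cells of the Kit class alone the difference was 1.47, and without CTRL 1 it was 1.42. Over all passing cells, in which the classes are present in other proportions after BU, the shares were 18.3%, 15.2%, 17.7% and 16.2% (difference -2.30, p = 0.33 by the exact permutation test).

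**Figure D2:**
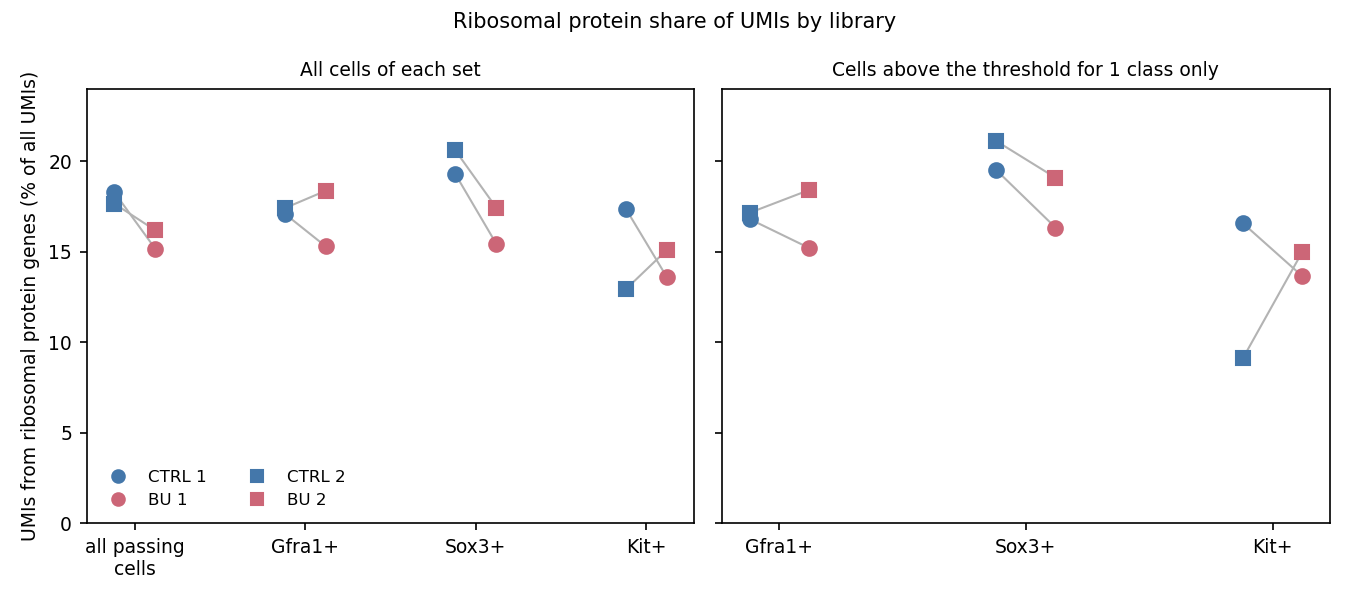
Ribosomal protein UMIs as % of all UMIs (y axis) in the 4 libraries for all passing, Gfra1+, Sox3+ and Kit+ cells (x axis), with a line joining the CTRL and BU library of an experiment. The lines fall in both experiments in Sox3+ cells, from 19.3% to 15.4% and from 20.6% to 17.4%, and run in opposite directions in Gfra1+ and Kit+ cells.

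Gene by gene, most ribosomal protein genes were slightly lower after BU in Sox3+ cells, and a few went the other way. The log2 ratio of BU over CTRL had a median of -0.34 in experiment 1 and -0.30 in experiment 2 over the genes at 10 CPM or more, against 0.07 and -0.00 for all genes at that level. It was below 0 in both experiments for 68 of 85 genes and above 0 in both for 6. The share of all genes with the same direction in both experiments is not given here, so these counts do not set the genes apart. Both BU libraries were below both CTRL libraries for 26 of 85 genes (20% of all genes) and above for 4 (23.7% of all genes). With condition as the only term, edgeR called none of the 86 (0.0% of 14445 genes were called, 5 of the 86 had an unadjusted p under 0.05, and DESeq2 called 1). For the unadjusted p and for DESeq2, the share of all genes is not given here. With the experiment as a block, which matches the shared lane and kit of same-numbered libraries and leaves 1 residual degree of freedom, 17 genes were lower (3.11% of all genes were called lower) and 2 were higher (2.58% of all genes). The median log2 fold change of the 86 was -0.31 in this fit, against 0.03 for all genes.

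The 17 lower genes were 5 of the 31 small subunit genes, 11 of the 46 large subunit genes and 1 of the 8 paralogs, with log2 fold changes of -0.42 to -0.75 and adjusted p of 0.028 to 0.048 (edgeR, experiment block). Rps4x, the X-linked gene of a small subunit protein, was at 611 and 452 CPM in CTRL and 331 and 295 CPM in BU (log2 fold change -0.75 ± 0.14, SE, adjusted p = 0.038). Rpl6, a large subunit protein, was at 3158 and 2681 CPM against 1660 and 1950 CPM (-0.69 ± 0.13). Rpl10a, a large subunit protein at the exit of transfer RNA, was at 3376 and 2444 CPM against 1846 and 1742 CPM (-0.68 ± 0.12). In each of these genes both BU libraries lay below both CTRL libraries.

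Rpl5 and Rpl11, which with 5S RNA form the particle that binds MDM2 when ribosome assembly fails, were both lower with the block. Rpl5 was at 1325 and 1864 CPM in CTRL against 830 and 1359 CPM in BU (-0.56 ± 0.11, adjusted p = 0.043), and Rpl11 at 1789 and 1775 CPM against 1190 and 1321 CPM (-0.51 ± 0.10, adjusted p = 0.048). The other lower genes included Rpl13a, Rpl22l1, Rpl15, Rpl18, Rpl3, Rpl4, Rpl8, Rpl23, Rps7, Rps15a and Rps20. Rpl13a is among them (-0.72 ± 0.10) although its level was 5032 and 2935 CPM in experiment 1 and 226 and 143 CPM in experiment 2. Rps6 was at 2783 and 1349 CPM against 1900 and 1019 CPM (-0.48 ± 0.10, adjusted p = 0.051) and missed the threshold. None of the 3 stalk genes was called, with Rplp0 at 4536 and 4360 CPM against 3634 and 3638 CPM (-0.29 ± 0.09, adjusted p = 0.095). Rpsa, the laminin receptor homologue of the small subunit, was at 2235 and 3369 CPM against 1624 and 3180 CPM (-0.27 ± 0.12, adjusted p = 0.20).

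The number of calls changed with the choice of cells. Among cells above the threshold for Sox3 alone, of which BU libraries held 245 and 128, the block fit called 2 genes higher and 0 lower, and 1.38% of all genes. The median log2 fold change of the 86 was -0.21 there and 69 were below 0, against -0.31 and 73 over all Sox3+ cells. Without cells with spermatid or somatic RNA it called 2 higher and 19 lower (1.88% and 2.57% of all genes), and without shared barcodes 2 higher and 28 lower (4.16% and 4.49% of all genes).

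**Figure D3:**
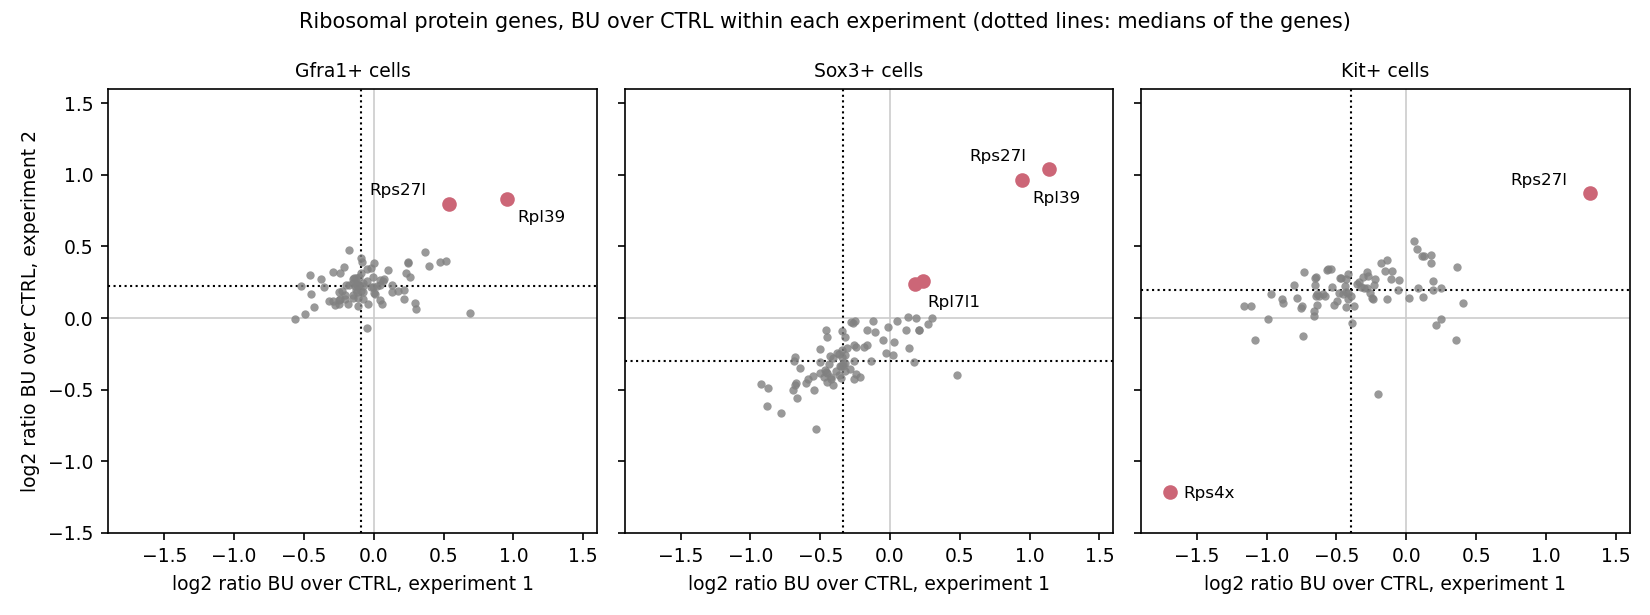
log2 ratio of BU over CTRL in experiment 1 (x axis) and experiment 2 (y axis) for ribosomal protein genes at 10 CPM or more, in Gfra1+, Sox3+ and Kit+ cells, with dotted lines at the medians and red points for genes at least 0.5 from them on the same side in both experiments, labelled where the text names them. Rps27l and Rpl39 stand above the cloud in Gfra1+ and Sox3+ cells, Rpl7l1 just passes the distance in Sox3+ cells, and in Kit+ cells Rps27l is above and Rps4x below.

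Rps27l and Rpl39 departed most from the other ribosomal protein genes in Gfra1+ and Sox3+ cells, and Rps4x and Rps27l in Kit+ cells. A gene was said to depart when its log2 ratio lay at least 0.5 from the median of the set on the same side in both experiments. This held in Sox3+ cells for 4 genes, among them Rps27l, Rpl39 and Rpl7l1 (25.6% of all genes lay as far from that median), in Gfra1+ cells for Rps27l and Rpl39 (6.75% of all genes), and in Kit+ cells for Rps27l above and Rps4x below (10.8% of all genes). Over all passing cells 3 genes departed, among them Rps27l and Rpl39 (14.5% of all genes). The rule is a distance and not a test. In Sox3+ cells Rpl7l1 was just inside it (0.51 and 0.53), and Rpl13a (-0.44 and -0.36) and Rps4x (-0.55 and -0.32) were just outside.

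Rps27l, a paralog of Rps27 known as a p53 target gene, was at higher levels in both BU libraries than in both CTRL libraries in every class. Its level in Sox3+ cells was 351 and 299 CPM in CTRL and 774 and 614 CPM in BU (log2 fold change 1.09 ± 0.12, SE, adjusted p = 0.023 in the block fit and 0.21 without the block). In Gfra1+ cells it was at 322 and 262 CPM against 468 and 456 CPM (0.67 ± 0.20, block adjusted p = 0.21). In Kit+ cells it was at 463 and 447 CPM against 1152 and 818 CPM (1.09 ± 0.30, block adjusted p = 0.12, and 1.11 with adjusted p = 0.059 without cells with spermatid or somatic RNA). Under TMM the call was made in Sox3+ cells only, and scaled to the summed ribosomal protein UMIs the block fit also called it in Kit+ cells (1.20, adjusted p = 0.038). The difference between classes in the response to BU did not pass the test (Kit+ against Gfra1+ cells 0.65 ± 0.27, adjusted p = 0.18 by edgeR).

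Rps27 itself showed no such pattern. In Sox3+ cells it was at 903 and 1081 CPM in CTRL and 892 and 1037 CPM in BU (-0.04 ± 0.11, block adjusted p = 0.84). Rps27rt, a further copy of this gene, was at 49.6 and 29.5 CPM against 69.3 and 22.3 CPM, and reads shared with Rps27 make it uncertain.

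Rpl39, the X-linked gene of a small protein of the large subunit's exit tunnel, was at 83.4 and 159 CPM in Sox3+ cells of CTRL and 161 and 312 CPM in BU (0.96 ± 0.15, block adjusted p = 0.032). In Gfra1+ cells it was at 166 and 354 CPM against 324 and 631 CPM (0.89 ± 0.19, block adjusted p = 0.12). In Kit+ cells it was at 100 and 287 CPM against 116 and 278 CPM (0.06 ± 0.28). Without cells with spermatid or somatic RNA it was at 96.8 and 152 CPM of library totals against 119 and 281 CPM (0.64, adjusted p = 0.38). Its log2 ratio within an experiment was 0.83 to 0.97 in Sox3+ and Gfra1+ cells, and with all Kit+ cells the experiments did not share a direction. Over all passing cells Rpl39 was the only one of the 86 genes called in the block fit (1.24 ± 0.18, adjusted p = 0.031, 1.49% of all genes called), at 110 and 183 CPM against 250 and 446 CPM, and it was not called without cells with spermatid or somatic RNA (1.15, adjusted p = 0.084). Rpl39l, its autosomal copy that is active in the testis, was at 743 and 635 CPM in Sox3+ cells of CTRL and 620 and 559 CPM in BU (-0.22 ± 0.12, block adjusted p = 0.26).

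When levels were scaled to the summed ribosomal protein UMIs instead of TMM, a scaling that raised the median of all genes to 0.35 in Sox3+ cells, the block fit called 3 genes higher, among them Rps27l (1.41) and Rpl39 (1.28), and Rpl13a (-0.40) lower, with 8.38% of all genes called. Of the 17 genes lower under TMM, only Rpl13a was also called under this scaling. Others were about as low without passing the test, such as Rps4x (-0.43, adjusted p = 0.072), Rpl6 (-0.37, adjusted p = 0.085) and Rpl22l1 (-0.33, adjusted p = 0.12). Rpl7l1, a paralog of Rpl7, was at 129 and 116 CPM in CTRL and 146 and 137 CPM in BU (0.21 ± 0.15, block adjusted p = 0.41).

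**Figure D4:**
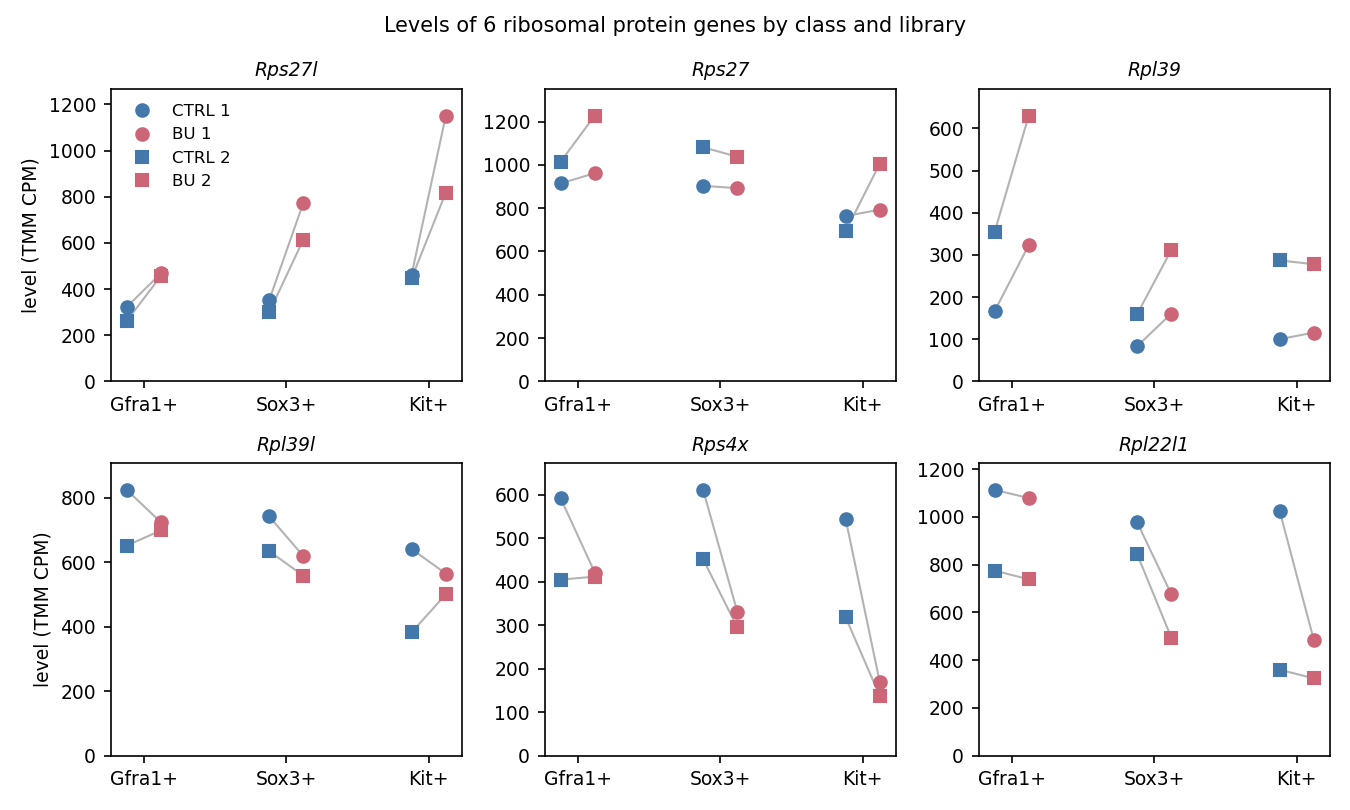
Levels (CPM after TMM scaling, y axis) of Rps27l, Rps27, Rpl39, Rpl39l, Rps4x and Rpl22l1 in the CTRL and BU library of each experiment (lines) for Gfra1+, Sox3+ and Kit+ cells. Rps27l rises along every line, for example from 351 to 774 CPM in Sox3+ cells of experiment 1, whereas Rps4x falls in Sox3+ and Kit+ cells and Rps27 stays level in Sox3+ cells.

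The X-linked genes did not move as a group. Rps4x was at 592 and 405 CPM in Gfra1+ cells of CTRL and 421 and 412 CPM in BU (-0.23 ± 0.21, block adjusted p = 0.70). In Kit+ cells it was at 544 and 318 CPM against 168 and 137 CPM (-1.45 ± 0.28, block adjusted p = 0.029), the only one of the 86 genes called there (0.952% of all genes were called). Without cells with spermatid or somatic RNA the Kit+ levels were 526 and 210 CPM of library totals against 173 and 138 CPM. The call was lost there (-1.10, adjusted p = 0.086). Rpl10 was at 591 and 299 CPM in Sox3+ cells of CTRL and 544 and 295 CPM in BU (-0.07 ± 0.12). Rpl36a was at 712 and 976 CPM against 699 and 825 CPM (-0.13 ± 0.12), and neither was called after BU in any class.

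The autosomal paralogs also differed among themselves. Rpl22l1, the paralog of Rpl22, was at 978 and 845 CPM in Sox3+ cells of CTRL and 677 and 494 CPM in BU (-0.65 ± 0.12, block adjusted p = 0.041), while Rpl22 was at 694 and 1611 CPM against 759 and 1620 CPM (0.07 ± 0.11). Rpl10l, the testis copy of Rpl10, was at 35.7 and 67.6 CPM against 31.7 and 59.3 CPM. Rpl36al was at 358 and 296 CPM against 413 and 280 CPM. Rpl3l, known from muscle, stayed at 4.53 to 6.49 CPM, whereas Rpl3 was at 3105 and 1941 CPM against 1935 and 1404 CPM (-0.57 ± 0.10, block adjusted p = 0.038).

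In Gfra1+ cells none of the 86 genes was called by edgeR without or with the block (0.0% and 0.066% of all genes were called). In these fits 1 and 3 of the 86 had an unadjusted p under 0.05, with the share of all genes not given here. DESeq2 called 0 of the 86 and 15 of all genes. The median log2 ratio was -0.09 in experiment 1 and 0.23 in experiment 2. Both BU libraries were above both CTRL libraries for 6 genes (17.9% of all genes) and below for 0 (11.9% of all genes). The median fold change of the set was 0.07 under TMM and -0.03 with library totals. Besides Rpl39 and Rps27l, the largest values included those of Rpl27 (0.46 ± 0.20) and Rpl41 (0.43 ± 0.21), with block adjusted p of 0.40 and 0.45. The lowest included those of Rpl13a (-0.29 ± 0.22), Rps4x, Rps14 (-0.14 ± 0.24) and Rpl4 (-0.10 ± 0.21), none of them called. In Kit+ cells Rpl41 (0.36 ± 0.35), Rps26 (0.31 ± 0.32), Rpl22 (0.28 ± 0.31) and Rps21 (0.28 ± 0.32) had the highest values after Rps27l, and among the lowest after Rps4x were Rpl22l1 (-0.61 ± 0.31), Rpl10a (-0.54 ± 0.38), Rpl6 (-0.51 ± 0.38) and Rpl13a (-0.42 ± 0.38), none of them called. In Kit+ cells and over all passing cells the edgeR fit without the block also called none (0.0% of all genes in both). In both, 2 of the 86 had an unadjusted p under 0.05, with the share of all genes not given here. DESeq2 called 0 of the 86 in both, but 119 of all genes over all passing cells. Its calls over all genes in Kit+ cells are not given here.

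Genes of the same pathway were read from lists of translation factors with TOP messages, ribosome biogenesis, RNA polymerase I, mTORC1 with the S6 kinases, and ribosome components outside the symbol rule. The 20 genes of the translation factor list include Vim and Nap1l1, which have TOP messages but are not translation factors. In Sox3+ cells the block fit called 5 of the 20 genes lower and none higher (3.11% of all genes were called lower). They were Eif4b, Eef2, Eif3f, Eif3k and Eef1a1. Eef2, which moves the ribosome along the message, was at 2171 and 1203 CPM in CTRL and 1142 and 799 CPM in BU (-0.76 ± 0.12, adjusted p = 0.034), and Eif4b, an initiation factor, at 212 and 249 CPM against 125 and 136 CPM (-0.82 ± 0.15, adjusted p = 0.038). Rack1, a scaffold on the small subunit, was lower as well (1320 and 1346 CPM against 832 and 998 CPM, -0.55 ± 0.11, adjusted p = 0.049), while Fau, which encodes a ribosomal protein fused to a ubiquitin-like domain, was not called (-0.25 ± 0.09). None of 40 biogenesis genes and none of 14 RNA polymerase I genes was called. Of 19 mTORC1 and S6 kinase genes, Rps6ka6 was higher (7.51 and 10.2 CPM against 21.2 and 20.3 CPM, 1.23 ± 0.24, adjusted p = 0.043). In Gfra1+ and Kit+ cells no gene of these lists was called with the block.

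The second question was how the classes differed from each other, tested in cells above the threshold for a single class with the library as a block. Sox3+ cells held a larger share of ribosomal protein UMIs than Gfra1+ cells in 4 of 4 libraries, by 2.71 and 3.97 points in CTRL and 1.12 and 0.69 points in BU (mean 2.12 ± 1.51, SD, n = 4). An exact sign-flip permutation test gave p = 0.125, the smallest that 4 libraries allow. The direction in BU 2 depended on how the classes were drawn. With single-class cells drawn by any UMI of the marker, BU 2 had 17.2% in Sox3+ and 17.6% in Gfra1+ cells. Over all cells of each class, overlaps included, BU 2 had 17.4% and 18.4%. The other libraries kept the direction in both. The median log2 fold change of the 86 genes was 0.20, against -0.02 for all genes, and 36 genes were higher in 4 of 4 libraries and 5 lower. The share of all genes with the same direction in 4 of 4 libraries is not given here, so these counts do not set the 86 apart. The single call was Rpl39, lower in Sox3+ cells (12.8% of all genes were called, 7.1% lower). It was at 199, 331, 436 and 667 CPM in Gfra1+ cells of CTRL 1, BU 1, CTRL 2 and BU 2 and at 90.2, 150, 146 and 345 CPM in Sox3+ cells (-1.17 ± 0.30, SE, adjusted p = 0.023 by edgeR). Each library was lower in Sox3+ cells, but the call was lost without CTRL 1, without BU 1 and without BU 2. Without CTRL 2, 13 of the 86 genes were called, with the share of all genes not given here. The largest positive values included those of Rpl18, Rpl8 and Rplp0 (0.38 to 0.45, higher in 4 of 4 libraries, adjusted p 0.12 to 0.15).

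The share of ribosomal protein UMIs in Kit+ cells was below that of Gfra1+ cells in 4 of 4 libraries, by -0.23 and -8.04 points in CTRL and -1.56 and -3.43 points in BU (mean -3.32 ± 3.41, SD, n = 4, exact sign-flip permutation p = 0.125). Over all cells of each class, overlaps included, CTRL 1 had 17.4% in Kit+ and 17.1% in Gfra1+ cells, the opposite direction. The other libraries kept the direction there. Only 10 and 15 CTRL cells were in the Kit class alone, against 152 and 53 BU cells, and in CTRL 2 somatic genes took 1.49% and spermatid genes 2.30% of their UMIs. Without cells with such RNA, 9 cells were left in CTRL 2, with a share of 11.1% and a median of 2.26% per cell, and the mean difference was -3.03. Without CTRL 2 it was -1.74. Of the 86 genes, edgeR called 49 lower and 1 higher (15.4% of all genes were called lower and 8.0% higher), with a median log2 fold change of -0.49 against -0.05 for all genes. Lower in 4 of 4 libraries were 67 of the 86 genes, with the share of all genes not given here.

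By role, 21 of 31 small subunit genes, 25 of 46 large subunit genes, 3 of 8 paralogs and 0 of 3 stalk genes were called lower. Rpl22l1 had the lowest fold change, with 1332, 1108, 783 and 770 CPM in Gfra1+ cells (CTRL 1, BU 1, CTRL 2, BU 2) and 783, 456, 198 and 243 CPM in Kit+ cells (-1.39 ± 0.22, adjusted p = 0.0016). Rpl10l was at 39.8, 47.9, 69.8 and 69.2 CPM against 17.4, 21.1, 15.5 and 38.7 CPM (-1.14 ± 0.23, adjusted p = 0.0050). Rpl4, a large subunit protein, was at 2129, 1497, 1306 and 1448 CPM against 896, 829, 497 and 873 CPM (-1.02 ± 0.17). Rpl39l was called lower as well (-0.88 ± 0.16), and so were Rps6 (-0.67 ± 0.13), Rpl5 (-0.70 ± 0.14), Rpl11 (-0.83 ± 0.13) and Rpsa (-0.71 ± 0.16). The stalk genes Rplp0 (-0.19 ± 0.16), Rplp1 (-0.29 ± 0.15) and Rplp2 (-0.15 ± 0.15) were not called.

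Rps27l went the other way, with 331, 464, 274 and 435 CPM in Gfra1+ cells and 339, 1241, 461 and 827 CPM in Kit+ cells (0.86 ± 0.18, adjusted p = 0.0074). It was higher in 4 of 4 libraries, while Rps27 was lower in each (-0.47 ± 0.14, adjusted p = 0.036). Rpl22, partner of Rpl22l1, was at 604, 676, 1217 and 1510 CPM against 522, 813, 801 and 1550 CPM and was not called (-0.09 ± 0.17).

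The number of calls in this contrast depended on the libraries and the scaling. Without cells with spermatid or somatic RNA 49 genes were lower and 1 higher (21.2% and 17.4% of all genes), and 48 of the calls were shared with those above. Each gene named above as called in Kit+ against Gfra1+ cells was among the called there too, with Rpl22l1 at -1.35, Rpl10l at -0.97, Rpl4 at -0.88 and Rps27l at 0.94. The 9 Kit cells left in CTRL 2 still stood apart, with a median ribosomal protein share of 2.26% per cell against 13.4% to 15.8% in the other libraries. Without CTRL 2 the fit called 56, without CTRL 1 17, without BU 2 4 and without BU 1 2. The share of all genes called in each of these fits is not given here, so the counts alone do not describe the set. The median log2 fold change of the 86 genes varied less, at -0.32, -0.46, -0.40 and -0.49 in the same order. Scaled to summed ribosomal protein UMIs, under which the median of all genes rose to 0.39, 9 genes were lower than the set (5.21% of all genes), among them Rpl22l1 (-0.91), Rpl10l (-0.75) and Rpl4 (-0.54), and 8 were higher (22.4% of all genes), among them Rps27l (1.34), Rplp2 (0.35) and Rpl22 (0.38). With library totals in place of TMM, 16 were lower and 1 higher (11% of all genes each way).

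**Figure D5:**
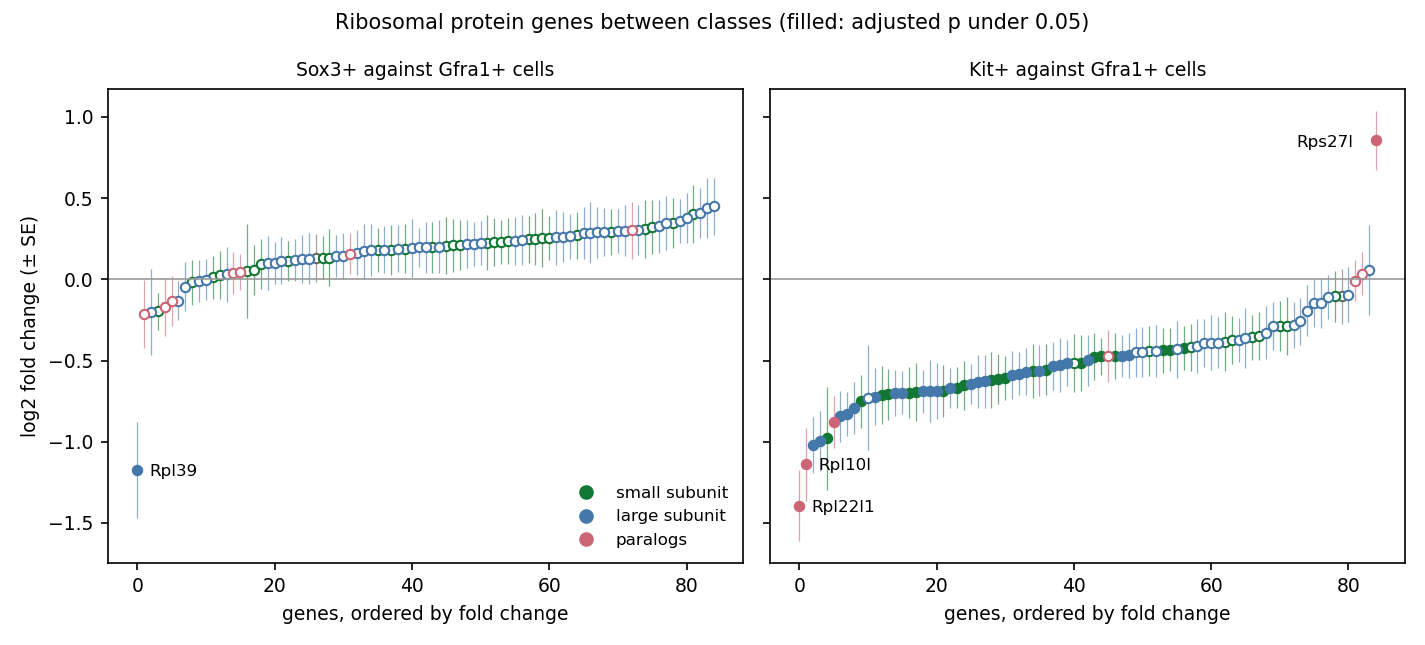
log2 fold change ± SE (y axis) of the ribosomal protein genes at 10 CPM or more, ordered by value (x axis), for Sox3+ against Gfra1+ cells and Kit+ against Gfra1+ cells, with filled points for adjusted p under 0.05 and grey for Rps19bp1. In the left panel Rpl39 at -1.17 is the only filled point, and in the right panel most points lie below 0 and Rps27l at 0.86 is the only filled point above it.

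Of the pathway lists, that of TOP translation factors held the most calls between Kit+ and Gfra1+ cells. With 15.4% of all genes called lower and 8.0% higher, 13 of the 20 genes of this list were lower. Among them were Eif3k (-1.06 ± 0.17) and Eif3f (-0.91 ± 0.14), and Pabpc4 was higher (1.56 ± 0.20). Of 40 biogenesis genes 4 were lower and none higher, a smaller share than of all genes, with Gtpbp4 at -0.83 ± 0.22 and Nop14 at -0.77 ± 0.14. Of 14 RNA polymerase I genes 4 were lower, with Polr1e at -1.24 ± 0.30 and Polr1b at -0.69 ± 0.22. Among 19 mTORC1 and S6 kinase genes the share called was near that of all genes (23.4%), and 3 were higher, including Rps6ka6 (1.85 ± 0.30) and Mtor (0.82 ± 0.14), and 2 were lower, the S6 kinase gene Rps6kb2 (-1.25 ± 0.21) and the translation repressor gene Eif4ebp2 (-0.51 ± 0.17). Fau was lower (-0.45 ± 0.15). The genes named here were also called without cells with spermatid or somatic RNA. In Sox3+ against Gfra1+ cells, with 12.8% of all genes called, 4 of 40 biogenesis genes were higher and none lower, with Nhp2 at 0.78 and Nop16 at 0.58. Of the RNA polymerase I genes Taf1c (0.93) and Polr1a (0.52) were higher and Ubtf (-0.50) lower. Eif4ebp1 (1.28) and Akt1s1 (0.60) were higher and Rps6kb2 (-0.97) lower in the mTORC1 list. In the TOP list 3 genes were higher, among them Eef1d and Pabpc4. The 1 lower gene there was Vim, which is not a translation factor.

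The third question was whether BU acted on these genes differently in the classes. For Sox3+ against Gfra1+ cells no ribosomal protein gene passed the interaction test of edgeR (0.00819% of all genes did). In that test 13 of the 86 had an unadjusted p under 0.05. The share of all genes at that unadjusted p is not given here, so this count does not set the 86 apart. For Kit+ against Gfra1+ cells 2 passed the interaction test (2.57% of all genes), Rps4x and Rpl39. Rps4x was at 365 and 494 CPM in CTRL and 157 and 102 CPM in BU cells of the Kit class alone, and Rpl39 at 131 and 536 CPM against 110 and 294 CPM. With cells that carried spermatid or somatic RNA left out, levels were read as CPM of library totals. Rps4x was then at 468 and 105 CPM against 166 and 110 CPM, and Rpl39 at 167 and 111 CPM against 116 and 318 CPM. No cell of the Kit class alone was left out in CTRL 1 or BU 1, so their levels moved only by the change of scale. With such cells left out no gene of the set passed.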

How the data were processed

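The deposited files hold raw UMI counts for each gene in each cell, which the authors took from filtered Cell Ranger output (3.0.2 by the file header). The paper aligned to mm10, and the submitters' processing notes list GRCm39 and Seurat 3.2. The labels give kit version 2 for experiment 1 and 3.1 for experiment 2, whereas the paper names version 2 alone. The labels were followed. UMIs totalled 26802228 and 39904588 in the CTRL libraries (experiments 1 and 2) and 21136369 and 53579969 in the BU libraries, and the number of libraries limits the precision.

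Genes were matched by identifier. Cells were kept with over 1000 genes and under 20% mitochondrial UMIs. A class held cells in which ln(1 + 100000 × the marker's share of UMIs) was above 2. Cells with 2% spermatid or 0.1% somatic UMIs were those left out as carrying such RNA. Doublets were ranked with scrublet in scanpy 1.11.5 (0.8% per 1000 cells) and left out as an alternative.

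UMIs summed per library were tested with edgeR 4.0.16 (filterByExpr, TMM, quasi-likelihood, Benjamini-Hochberg over all genes at 0.05) and R 4.3.3, with DESeq2 1.42.0 as an alternative. The fits were tested on simulated data with changes larger than the fold changes reported here. Recovery of changes as small as those reported was not tested. Ratios had 0.5 CPM added. Same-numbered libraries shared lane and kit, and the deviations of same-numbered libraries from the group means correlated at 0.78 (all), 0.66 (Gfra1+), 0.61 (Sox3+) and 0.49 (Kit+), so experiment pairs the libraries. Levels are CPM after TMM, and those without spermatid or somatic RNA, as well as marker levels, are CPM of library totals. Chromosomes of the genes are from GENCODE M21 on GRCm38, and the windows at gene starts are placed by RefSeq on GRCm38.p6.

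Named were fixed genes (Rps6, stalk, Rpl5, Rpl11, Rpsa, X-linked genes, paralogs and partners), the 5 highest and 5 lowest fold changes with the same side of the median in every experiment or library, departing genes, and the extremes of the pathway lists; a few of these genes are not reported here by name. All genes and lists were chosen with earlier results of these data known.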

Additional observations from a re-analysis of the deposited data

Results flagged for a closer look

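The response to BU differed between Kit+ and Gfra1+ cells by an interaction test (edgeR, library as block) for 2 of 86 cytosolic and 2 of 77 mitochondrial ribosomal protein genes. In the same test 2.57% of all genes passed, near the share in both sets. The difference in log2 fold change, Kit+ minus Gfra1+, was -1.61 ± 0.34 (SE, adjusted p = 0.038) for Rps4x and -1.54 ± 0.29 (adjusted p = 0.033) for Rpl39. For Mrps34 it was -1.56 ± 0.31 (adjusted p = 0.034) and for Mrps24 0.85 ± 0.19 (adjusted p = 0.047). Only 10 and 15 CTRL cells were in the Kit class alone. Without cells with spermatid or somatic RNA, chosen as an alternative after seeing the data, the differences were -0.58 for Rps4x (adjusted p = 0.57), 0.13 for Rpl39 (adjusted p = 0.93), -0.50 for Mrps34 (adjusted p = 0.79) and 0.87 for Mrps24 (adjusted p = 0.12), and none was called.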

How the results depend on the processing

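The share of ribosomal protein UMIs in Sox3+ cells and over all passing cells stayed lower with BU under each of 14 and 11 alternatives. With single libraries left out, the difference ranged from -4.51 to -2.51 (Sox3+), -2.81 to -1.79 (all), -1.96 to 1.12 (Gfra1+) and -3.02 to 1.42 (Kit+), with 1.47 in cells of the Kit class alone. That between classes ranged from 1.51 to 2.60 (Sox3+) and -4.34 to -1.74 (Kit+).

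With 1 library left out, called genes ranged from 0 to 1 in each BU comparison, 2 to 56 for Kit+ and 0 to 13 for Sox3+ against Gfra1+ cells. DESeq2 called 1 gene in Sox3+ cells. The replicate block, which pairs the libraries by experiment, called 1 (all), 19 (Sox3+) and 1 (Kit+), 1, 19 and 1 with library totals, 2, 30 and 2 without shared barcodes, 21 in Sox3+ cells without spermatid or somatic RNA, 2 and 1 in cells of the Sox3 and Kit class alone, and 4 and 1 when scaled to ribosomal protein UMIs; combinations with the block were chosen after seeing the data, except the last. The block changed no call of the set in Gfra1+ cells. Calls over all genes moved with the setting too. Over all passing cells the block called 258 of all genes, 80 with library totals and 1461 without shared barcodes. Counts of the set alone are therefore no measure of the set.

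Kit+ against Gfra1+ cells gave 7 genes with no replicate block, 17 with library totals, 17 scaled to ribosomal protein UMIs, 33 without doublets and 0 when classes were drawn by any UMI of the marker. Sox3+ against Gfra1+ cells gave 0 with no replicate block, 6 with DESeq2, 2 scaled to ribosomal protein UMIs, 2 without spermatid or somatic RNA and 0 by any UMI. The interaction for Kit+ cells gave 0 scaled to ribosomal protein UMIs and 0 without spermatid or somatic RNA. At a distance of 0.3, 6 (all), 8 (Sox3+) and 5 (Kit+) genes departed, and 2 in Sox3+ cells from the mean. The cause of these moves was not tested. Depth limits the Kit class of CTRL most, and fewer than 3 libraries a group leave every p coarse.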

Other observations

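The 78 genes of mitochondrial ribosomal proteins (Mrpl and Mrps), whose products translate the messages of the mitochondrial genome, gave values unlike those of the cytosolic set in Sox3+ cells. With the experiment as a block, 1 of 77 tested there was lower after BU and none higher (3.11% of all genes were called lower), and their median log2 fold change was 0.04, against -0.31 for the cytosolic genes. The lower gene was Mrpl14, at 190 and 149 CPM in CTRL and 113 and 82.8 CPM in BU (-0.80 ± 0.15, SE, adjusted p = 0.043 by edgeR). In Gfra1+ cells, Kit+ cells and all passing cells none was called with the block, with medians of 0.11, 0.08 and 0.12.

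Between Kit+ and Gfra1+ cells 17 of 77 mitochondrial ribosomal protein genes were lower and 1 was higher, with 15.4% of all genes called lower and 8.0% higher (median -0.19, against -0.05 for all genes). Mrpl1 was at 85.0, 110, 79.5 and 104 CPM in Gfra1+ cells of CTRL 1, BU 1, CTRL 2 and BU 2 and 17.4, 52.7, 38.6 and 41.9 CPM in Kit+ cells (-1.19 ± 0.19, adjusted p = 0.0014). Mrpl58 was also lower (-0.97 ± 0.14), and Mrpl54 was higher (0.65 ± 0.15, adjusted p = 0.012). Between Sox3+ and Gfra1+ cells 2 of 77 were higher, Mrps18a (0.52) and Mrpl14 (0.46), and none lower. This was a smaller share than of all genes, of which 12.8% were called in either direction and 7.1% lower.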
